A study of Mus musculus with 12 samples.

Results

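Accessible chromatin was examined at 10 genes of the transforming growth factor-beta (TGF-beta) and SMAD pathway, namely Tgfb1, Tgfbr1, Tgfbr2, Tgfbr3, Smad2, Smad3, Smad4, Smad7, Ski and Skil, in mouse hematopoietic stem cells (HSCs). The data were 12 lists of ATAC-seq peak summits. ATAC-seq uses a transposase that inserts sequencing adapters into open DNA, and a summit is the position of highest signal in a peak. The HSCs had been sorted from bone marrow of C57BL/6 mice as Lin-/c-Kit+/Sca-1+/Flk2-/CD48-/CD150+ cells. There were 4 groups of 3 libraries: young WT and aged WT, from wild-type mice at 3 and 18 months of age, and young Mlkl-/- and aged Mlkl-/-, from mice at 3 and 18 months that lacked Mlkl, the pseudokinase that executes necroptosis, in the whole animal. Each library was a pool of HSCs from several mice, with more mice in a young than in an aged pool, and the labels give no sex for the pools. The comparisons addressed whether chromatin at these genes differs with age, with loss of Mlkl, or with both. Summits with a score of 3 or more (each score being a −log10 q-value) were widened by 250 bp on each side and merged over the 12 lists, which gave 70993 regions. Of these, 80 lay within the body of a member gene or within 10 kb on either side of it.

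TGF-beta 1, the ligand that Tgfb1 encodes, is released from a latent complex and binds the receptor kinases encoded by Tgfbr2 and Tgfbr1, while the product of Tgfbr3 (betaglycan) presents ligand to them. The active receptor phosphorylates SMAD2 and SMAD3, which join SMAD4 and bind DNA in the nucleus. SMAD7 blocks the receptor, and SKI and SKIL (also called SnoN) are corepressors that bind SMADs and keep their targets silent. In bone marrow the pathway is known for holding HSCs in quiescence.

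The sequences below show the summits of the regions on which the results turn, with 100 bp on either side (201 bases, mm10, plus strand, 5′ to 3′), read from the RefSeq GRCm38 assembly. Capitals mark matches, on either strand, to the SMAD motif CAGACA, the AP-1 motif TGANTCA, the ETS motif AGGAAGT, the RUNX motif TGTGGTT, the GATA motif AGATAA and the E-box CAGNTG. A match is a description of the letters and not a binding site. The first 3 are from Tgfbr2, which is on the minus strand: the intronic region that passed the age test (14.4 kb into the gene, chr9:116160896-116161096), the intronic region 52.2 kb into the gene, whose young and aged values did not overlap (chr9:116123102-116123302), and the start (chr9:116175163-116175363). The other 2 are the highest ranked region at any of the genes (Ski, 21.6 kb into the gene, chr4:155200869-155201069) and the start of lowest rank (Tgfb1, chr7:25687029-25687229). Ski is on the minus strand and Tgfb1 on the plus strand.
Tgfbr2 intron at 14.4 kb: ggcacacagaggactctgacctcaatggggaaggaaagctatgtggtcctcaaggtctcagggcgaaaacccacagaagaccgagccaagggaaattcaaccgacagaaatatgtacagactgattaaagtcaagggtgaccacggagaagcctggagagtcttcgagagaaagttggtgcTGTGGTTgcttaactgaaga
Tgfbr2 intron at 52.2 kb: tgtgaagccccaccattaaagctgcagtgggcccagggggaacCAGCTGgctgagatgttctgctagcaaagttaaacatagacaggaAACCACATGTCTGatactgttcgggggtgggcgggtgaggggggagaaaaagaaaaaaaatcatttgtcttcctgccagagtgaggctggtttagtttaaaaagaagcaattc
Tgfbr2 start: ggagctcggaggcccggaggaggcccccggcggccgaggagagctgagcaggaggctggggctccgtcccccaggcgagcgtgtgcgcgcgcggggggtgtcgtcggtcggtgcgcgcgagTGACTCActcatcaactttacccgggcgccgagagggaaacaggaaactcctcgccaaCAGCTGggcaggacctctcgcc
Ski intron at 21.6 kb: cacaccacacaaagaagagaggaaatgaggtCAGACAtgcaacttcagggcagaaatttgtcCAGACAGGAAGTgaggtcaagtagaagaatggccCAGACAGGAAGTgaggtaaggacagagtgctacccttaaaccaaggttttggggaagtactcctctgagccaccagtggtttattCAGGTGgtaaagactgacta
Tgfb1 start: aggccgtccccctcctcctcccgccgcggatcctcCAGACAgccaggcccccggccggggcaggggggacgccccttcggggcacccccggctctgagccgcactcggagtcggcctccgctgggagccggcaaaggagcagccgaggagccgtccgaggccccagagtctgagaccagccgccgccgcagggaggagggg
In the Ski region at 21.6 kb the capitals are 3 SMAD matches, 2 ETS matches and 1 E-box. In 2 places a SMAD match runs into an ETS match, sharing 1 base. The Tgfbr2 region at 14.4 kb holds 1 RUNX match near its end, and the one at 52.2 kb holds an E-box and, in 1 run, a RUNX and a SMAD match in the opposite orientation.

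Lists differed in length, from 35714 to 61495 summits with a score of 3 or more, and aged lists were longer on the whole. Read depth was unknown. Each list was therefore also reduced to its 35714 best summits (equal-length lists). Within a list all regions were ranked by score and ranks were turned into normal scores, where 0 is the middle of the ranks and a region without a summit in the equal-length list stood between −0.57 and −0.52. All differences below are differences in normal score, a relative rank and not accessibility itself. The start of Mlkl had a summit in 12 of 12 lists, so the lists do not check the genotype labels. Of 11 HSC marker genes, 3 (Hlf, Kit and Meis1) had a summit at their start in 12 of 12 lists and Slamf1, which encodes CD150, in 0. The others had one in 5 to 10 lists, among them Mecom (1 young and 4 aged) and Procr (3 young and 6 aged). Starts of 3 B cell and 3 T cell markers had none. Of 4 granulocyte and monocyte markers, the start of Itgam was called in 3 lists and those of Ly6g, S100a8 and Mpo in 0. That of the erythroid marker Hbb-bt was called in 3, and those of the megakaryocyte genes Gp9, Pf4 and Itga2b in 12. Flt3, which encodes Flk2, was called in 12 and Cd48 in 2 (both young). The part of other cells in the results was not tested.

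Every member gene had accessible regions. Of the 80 regions, 31 (38.8%) had a summit in all 12 lists, against 28.6% of all regions, and 15 were seen in 1 list only. In equal-length lists 27 (33.8%) were called 12 times, against 21.9% of all regions. Tgfbr2, Tgfbr3, Smad3 and Ski had the most regions (11 each) and Smad2 the fewest (3). Scaled by the span searched, Smad7 was the densest with 18.6 regions per 100 kb and Smad2 the sparsest with 3.36. By position, 12 regions lay within 1 kb of a start of the gene they belong to, 52 elsewhere in the gene body and 16 in the flanks. For 27 of the regions the nearest start was that of another gene. These were most frequent at Tgfbr3 (9 of 11) and Tgfb1 (4 of 6), so an assignment to the member gene is by position only.

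**Figure D1:**
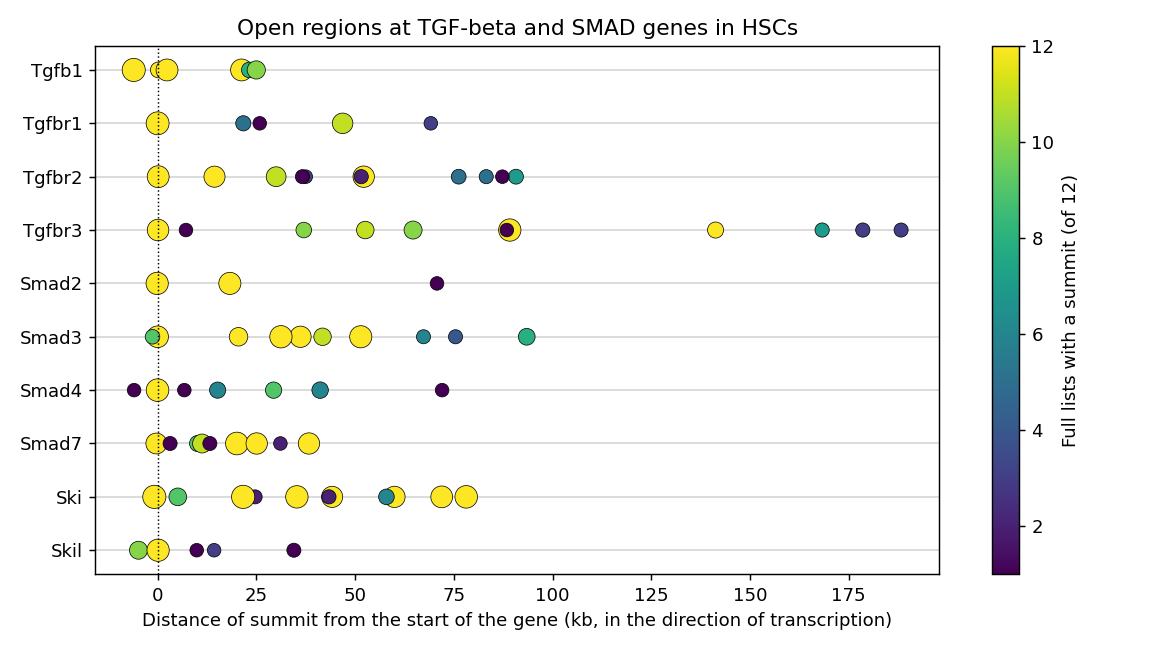
Each circle is 1 of the 80 regions, placed by the distance of its summit from the start of its gene (kb, horizontal axis). Colour gives the number of full lists with a summit, from 1 to 12, and circle size grows with the mean percentile rank over the 12 libraries. All 10 genes have a region called 12 times near 0 kb. Ski has 7 regions called 12 times, spread from upstream of its start to its downstream flank.

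In full lists, a mean of 48.3 ± 1.53 of the 80 regions was called in young WT, 49.3 ± 6.51 for young Mlkl-/-, 52.7 ± 6.03 for aged WT and 54.3 ± 4.04 for aged Mlkl-/- libraries (SD, n = 3). In equal-length lists the order of the ages was turned: 42.0 ± 3.00, 43.0 ± 1.0, 38.3 ± 2.08 and 39.3 ± 2.08 (SD, n = 3). Aged libraries thus had more summits at these genes in full lists and fewer in equal-length lists. As shares, 60.4%, 61.7%, 65.8% and 67.9% of member regions were called in full lists of these groups, and 49.0%, 53.3%, 62.3% and 63.5% of all regions. Both shares were higher in the aged groups, whose lists were longer on the whole. The part of list length was not tested. In equal-length lists, shares of member regions ran from 48.75% to 56.25% over young and from 45.0% to 51.25% over aged libraries. Those of all regions ran from 40.04% to 43.45% and from 40.19% to 43.2%. No test was run on these counts.

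At their starts the 10 genes were open in every library. The region holding or nearest to the first start had a summit in 12 of 12 full lists for all 10, and for 9 of them also in every equal-length list. The mean normal score over 12 libraries was highest at Ski (1.82 ± 0.14, SD), followed by Tgfbr1 (1.61 ± 0.17), Smad4 (1.40 ± 0.18), Skil (1.24 ± 0.16), Smad2 (1.23 ± 0.19), Tgfbr2 (1.08 ± 0.25), Smad3 (0.97 ± 0.14), Tgfbr3 (0.96 ± 0.24) and Smad7 (0.76 ± 0.24). The summit of the Smad7 region lies 62 bp from the start of Gm20544, nearer than to that of Smad7. The Ski region does not hold the first start of Ski, and its summit lies 883 bp upstream of it. Neighbours in this order differed by less than the larger of their SDs, except between Ski and Tgfbr1, Tgfbr1 and Smad4, and Smad7 and Tgfb1. Scores of single summits were compared and not scaled by length.

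The ligand stood apart. At the start of Tgfb1 (chr7:25686666-25687536, UTR of exon 1) the deposited scores were 8.14, 4.81 and 4.31 for young WT, 4.46, 3.96 and 6.04 for young Mlkl-/-, 7.35, 8.81 and 3.36 for aged WT and 4.18, 4.20 and 6.92 for aged Mlkl-/- libraries. No group was separate from the others, and the region ranked high enough for 4 of 12 equal-length lists only (mean normal score −0.23 ± 0.49, SD, n = 12). An intronic region of Tgfb1 2.3 kb into the gene was called in 12 of 12 and had a mean of 1.08. The strongest region assigned to Tgfb1, 6.1 kb upstream of it (1.80), sat 61 bp from the start of B9d2.

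**Figure D2:**
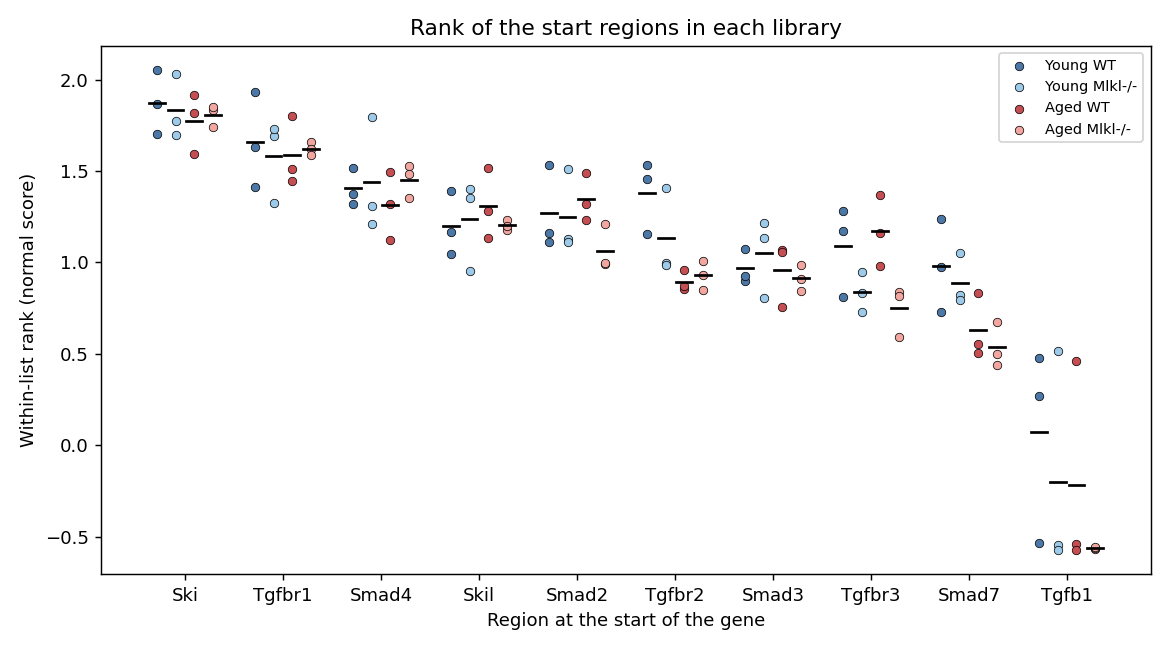
Normal scores (vertical axis) of the region at the start of each gene in the 12 libraries, coloured by group, with a bar for the mean of 3. Genes are ordered by mean, from Ski at 1.82 to Tgfb1 at −0.23. Points near −0.55 are libraries without a summit in the equal-length list.

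With age, 1 region at these genes passed the threshold, and not under every setting (below). It was an intronic region of Tgfbr2, the receptor kinase that binds the ligand first, and it fell in rank. Of the 49 member regions called in 3 or more equal-length lists, which were the ones tested, 1 passed at an adjusted p under 0.01 (limma, Benjamini-Hochberg over 37881 regions), against 2.72% of all regions. That share is near the background. The fitted change was negative for 33 of the 49 (67.3%, all regions 51.0%), and the median change was −0.10 (all regions −0.01). At an unadjusted p under 0.05 there were 12 lower member regions, where 10.7% of all regions were lower, and 3 higher, where 11.4% of all were higher. Young and aged values did not overlap in 2 regions, both lower (1.75% of all regions), and in 0 higher ones (2.13% of all). Among regions called in all 12 equal-length lists, 18 of 27 were lower (66.7%, all 53.8%).

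**Figure D3:**
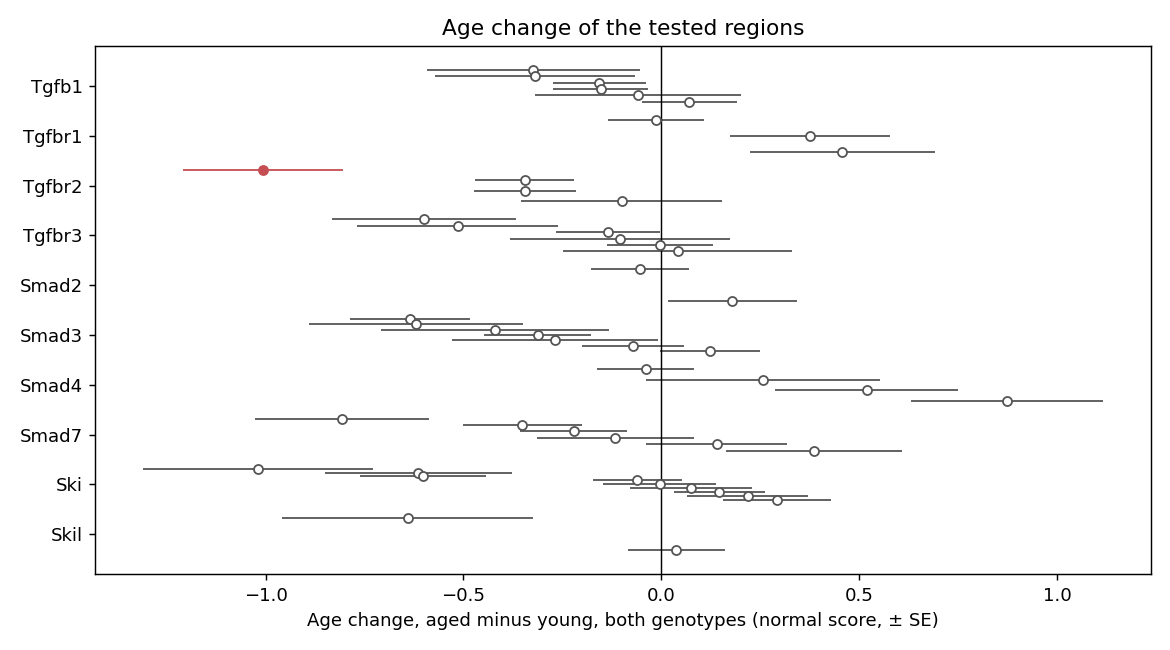
Age change (aged minus young over both genotypes, normal score, horizontal axis) with its SE for the 49 tested regions, by gene. The filled red point is the Tgfbr2 region at 14.4 kb, −1.01, the only one past an adjusted p of 0.01, and 33 points lie left of 0.

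Tgfbr2 lies on chromosome 9 from 116084293 to 116175360 (minus strand). Its intronic region at 14.4 kb (chr9:116160721-116161372) had a summit in every full list. Deposited scores were 22.96, 36.38 and 29.31 for young WT, 32.43, 18.7 and 19.02 for young Mlkl-/-, 13.03, 14.40 and 11.92 for aged WT and 7.37, 7.21 and 20.78 for aged Mlkl-/- libraries. Normal scores were 1.31, 1.84 and 1.68 for young WT, 1.63, 0.92 and 1.37 for young Mlkl-/-, 0.65, 0.83 and 0.59 for aged WT and −0.57, 0.34 and 0.87 for aged Mlkl-/- libraries. All 6 aged ranks were below all 6 young ranks, although the deposited score of Aged Mlkl-/- replicate 3 was above those of Young Mlkl-/- replicates 2 and 3. The mean went from 1.46 ± 0.33 to 0.45 ± 0.53 (SD, n = 6), a change of −1.01 ± 0.20 (SE, limma adjusted p = 0.00471). In WT alone it was −0.92 (limma adjusted p = 0.103) and in Mlkl-/- alone −1.10 (limma adjusted p = 0.0585). In such bulk libraries, fewer cells with an open region and a less open region in each cell cannot be told apart. The call did not hold with list length as a covariate (−0.86, limma adjusted p = 0.107), with a covariate for summits at Y genes, which were in 3 young and 0 aged lists (−1.14, limma adjusted p = 0.0199), on percentile ranks (limma adjusted p = 0.0349) or in a subset of 9 libraries that share an unexplained mark in their file names (−0.88, limma adjusted p = 0.0136). It was also lost without Young WT replicate 2 (limma adjusted p = 0.0177) or 3 (0.0143), Young Mlkl-/- replicate 1 (0.0217) or 3 (0.0126), Aged WT replicate 1 (0.0162) or 3 (0.017) or Aged Mlkl-/- replicate 2 (0.011), at changes between −1.17 and −0.81 over all 12 omissions.

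All 4 tested regions of Tgfbr2 had a negative change. The intronic region at 52.2 kb (chr9:116122891-116123497), singled out after its values were seen, had normal scores of 1.10, 1.24 and 1.11 for young WT, 1.13, 0.90 and 0.99 for young Mlkl-/-, 0.86, 0.82 and 0.68 for aged WT and 0.79, 0.78 and 0.48 for aged Mlkl-/- libraries. The ages did not overlap, but the change was small and did not pass (−0.34 ± 0.13 SE, limma adjusted p = 0.114). At the start of Tgfbr2 (chr9:116174396-116175535, UTR of exon 1), normal scores spanned 0.99 to 1.53 in the 6 young libraries (median 1.28) and 0.85 to 1.01 in the 6 aged ones (median 0.90). The ranges overlapped narrowly, and the change was −0.35 ± 0.13 (SE, limma adjusted p = 0.102). The region at 29.98 kb had a change of −0.10 (limma adjusted p = 0.856). The other 7 regions were too rarely called to be tested. Among them, the intronic region at 76.2 kb had a summit in 5 of 6 young and 0 of 6 aged full lists, and the region at 90.7 kb, in the UTR of exon 8, in 1 of 6 young and 6 of 6 aged full lists. Aged full lists were longer on the whole. In equal-length lists each region was called in 2 libraries only, young ones at 76.2 kb and aged ones at 90.7 kb.

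At the other receptors no region passed. Tgfbr1 (chr4:47353222-47414931, plus strand) had 3 tested regions. Its start had a fitted change of −0.01 ± 0.12 (SE, limma adjusted p = 0.961), and the intronic region at 21.7 kb, seen in 0 of 6 young and 5 of 6 aged full lists, had a change of 0.46 ± 0.23 (SE, limma adjusted p = 0.251). The region at 21.7 kb was tested through aged lists alone, and its young values hold no spread between pools. The third, in an intron at 46.8 kb and outside the naming rule, had 0.38 ± 0.20 (SE, limma adjusted p = 0.275). At Tgfbr3 (chr5:107106570-107289629, minus strand) 5 of 6 tested regions were lower, with changes from −0.60 to 0.04, and none passed. Its strongest region, in an intron at 89.2 kb, was called in 12 of 12 lists with a mean of 1.26.

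Among the receptor-activated SMADs, Smad3 (chr9:63646767-63757994, minus strand) had 6 of 7 tested regions lower. The intronic region at 51.4 kb (chr9:63706255-63706837), singled out after its values were seen, had normal scores of 1.66, 1.48 and 1.45 for young WT, 1.13, 1.66 and 2.02 for young Mlkl-/-, 1.02, 1.11 and 0.66 for aged WT and 0.75, 0.78 and 1.26 for aged Mlkl-/- libraries. Only Aged Mlkl-/- replicate 3 was above the lowest young value. The change of −0.63 ± 0.15 (SE, limma adjusted p = 0.0156) missed the threshold, and it passed with lists of unequal length (limma adjusted p = 0.00524) but not with list length as a covariate (−0.58, limma adjusted p = 0.160). Over the 12 omissions of 1 library the limma adjusted p ran from 0.00553 to 0.046, and 1 passed, the one without Young Mlkl-/- replicate 1 (−0.75). Its start had −0.07 ± 0.13 (SE, limma adjusted p = 0.791). Smad2 (chr18:76241580-76310963, plus strand) had 2 tested regions, its start with a change of −0.05 and an intronic region at 18.3 kb with 0.18, and neither passed.

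Smad4, the common partner (chr18:73639009-73703780, minus strand), had 3 tested intronic regions, all with a positive fitted change, and none passed. The region at 41.1 kb (chr18:73662361-73662920) had no summit in any young full list, and aged scores were 15.6, 3.03 and 8.92 in WT and 9.47, 6.22 and 18.7 in Mlkl-/- libraries. A call in all 6 aged and no young full list was made at this 1 member region and at 0.841% of all regions. In equal-length lists it was called in 5 of 6 aged libraries, and its rank difference of 0.87 ± 0.24 (SE, limma adjusted p = 0.0322) did not pass. It passed with lists of unequal length (1.09, limma adjusted p = 0.00408) but not with list length as a covariate (0.70, limma adjusted p = 0.299). All 6 young values were those of regions without a summit. The region was thus tested through aged lists alone, and its young values hold no spread between pools. Over the 12 omissions of 1 library the limma adjusted p ran from 0.00816 to 0.0764, and 1 passed, the one without Aged WT replicate 2 (1.06), which removes the lowest aged score. The region at 15.2 kb had a summit in 1 of 6 young and 5 of 6 aged full lists (0.52 ± 0.23 SE, limma adjusted p = 0.195). The start of Smad4 had a change of −0.04 ± 0.12 (SE, limma adjusted p = 0.889).

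At the inhibitor Smad7 (chr18:75367529-75395935, plus strand) the intronic region at 10.1 kb had a summit in 6 of 6 young and 3 of 6 aged full lists, and in 5 of 6 and 0 of 6 equal-length lists. Its young normal scores were 0.28, −0.53 and 0.38 in WT and 0.29, 0.38 and 0.71 in Mlkl-/- libraries, whereas all 6 aged libraries stood at or below −0.53. The change of −0.81 ± 0.22 (SE) did not pass (limma adjusted p = 0.0304). The region was tested through young lists alone, and its aged values hold no spread between pools. The start had −0.35 ± 0.15 (SE, limma adjusted p = 0.176), and the strongest region, in an intron at 20.03 kb with a mean of 1.47, had −0.22 ± 0.13 (SE, limma adjusted p = 0.353).

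Of the corepressors, Ski (chr4:155154075-155222592, minus strand) held the region of highest rank of all 80. In the intron at 21.6 kb (chr4:155200652-155201618) normal scores lay between 1.43 and 2.05 in young libraries and between 1.65 and 2.28 in aged libraries. Its mean was 1.89 in both ages (SD 0.24 and 0.25, n = 6), a fitted change of −0.00 ± 0.14 (SE). In contrast, the intronic region at 5.1 kb had normal scores of 0.75, 0.71 and 0.78 for young WT, 1.0, 1.10 and −0.52 for young Mlkl-/-, 0.49, −0.53 and −0.57 for aged WT and −0.57, −0.56 and −0.56 for aged Mlkl-/- libraries. Among equal-length lists, 5 young and 1 aged of 6 each held a call. The change of −1.02 ± 0.29 (SE, limma adjusted p = 0.0366) did not pass. Over the 12 omissions of 1 library the limma adjusted p ran from 0.00438 to 0.0985, and 1 passed, the one without Young Mlkl-/- replicate 3 (−1.28), which removes the only young library without a summit there. With all deposited scores it passed (−1.16, limma adjusted p = 0.0072), and with the Y-gene covariate the change was −0.63 (limma adjusted p = 0.317). A further intronic region at 60.0 kb, singled out after its values were seen, went from 1.20 ± 0.22 to 0.60 ± 0.29 (SD, n = 6), a difference of −0.60 ± 0.16 (SE, limma adjusted p = 0.0265). Of the 9 tested regions of Ski 5 were lower and 4 higher. Skil (chr3:31095058-31122577, plus strand) had a change of 0.04 ± 0.12 (SE) at its start and 1 other tested region, 4.9 kb upstream (−0.64 ± 0.32 SE, limma adjusted p = 0.240).

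**Figure D4:**
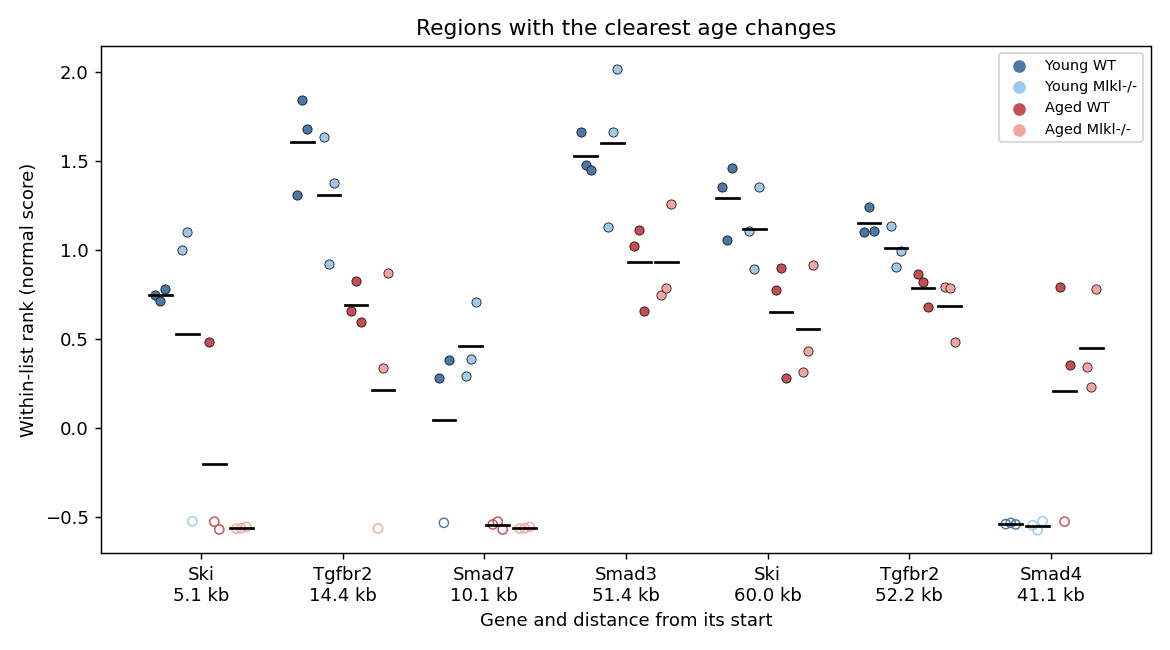
Normal scores (vertical axis) in the 12 libraries for the 7 regions with an adjusted p under 0.05 or no overlap between the ages, coloured by group with a bar for the mean of 3; open circles are libraries without a summit in the equal-length list. Aged points lie below young ones at both Tgfbr2 regions, and the Smad4 region at 41.1 kb has filled points in aged libraries only.

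By position, no start or flank region passed for age. Of the 10 tested start regions 9 had a negative change, with a range of −0.35 to 0.04, and 57.1% of all tested regions near a start of any gene were lower. In the gene body 19 of 31 were lower, with a range of −1.02 to 0.87, and in the flanks 5 of 8, with a range of −0.64 to 0.22, against 47.4% of all other tested regions. Member regions were classed by the start of their own gene and the background by any start. The flank region 6.1 kb upstream of Tgfb1, near the start of B9d2, would thus fall in the start class of the background. The classes differ in size, and their ranges were not tested against each other.

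The age changes of both genotypes pointed the same way at most regions. In WT and in Mlkl-/- libraries, which share no library, 23 of the 49 changes were negative in both, 11 positive in both and 15 opposite, so that 69.4% had the same sign, against 64.3% of all tested regions. Some of these regions, such as Smad4 at 41.1 kb and Smad7 at 10.1 kb, were called in equal-length lists of 1 age only. The other age then stood at the value of regions without a summit in both genotypes, so the filter itself favoured a shared sign. The same filter applied to all tested regions. No member region passed in WT alone (0 of 49, all regions 0.201%; limma, 10 at an unadjusted p under 0.05) or in Mlkl-/- alone (0 of 49, all regions 0.150%; limma, 10 at an unadjusted p under 0.05). By presence in full lists, 3 member regions had summits in all aged and no young WT libraries (3.61% of all regions): those of Tgfbr1 at 21.7 kb, Tgfbr3 at 168.3 kb and Smad4 at 41.1 kb. The reverse was seen in WT at Tgfbr2 at 76.2 kb alone (0.524% of all). In Mlkl-/- there were 3 gains (2.66% of all), at Tgfbr2 at 90.7 kb, Tgfbr3 at 178.6 kb and Smad4 at 41.1 kb, and 0 losses (0.321% of all). In equal-length lists none of the WT patterns held, and in Mlkl-/- there was 1 gain (Smad4 at 41.1 kb, 1.39% of all regions) and 1 loss (Smad7 at 10.1 kb, 0.801% of all).

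**Figure D5:**
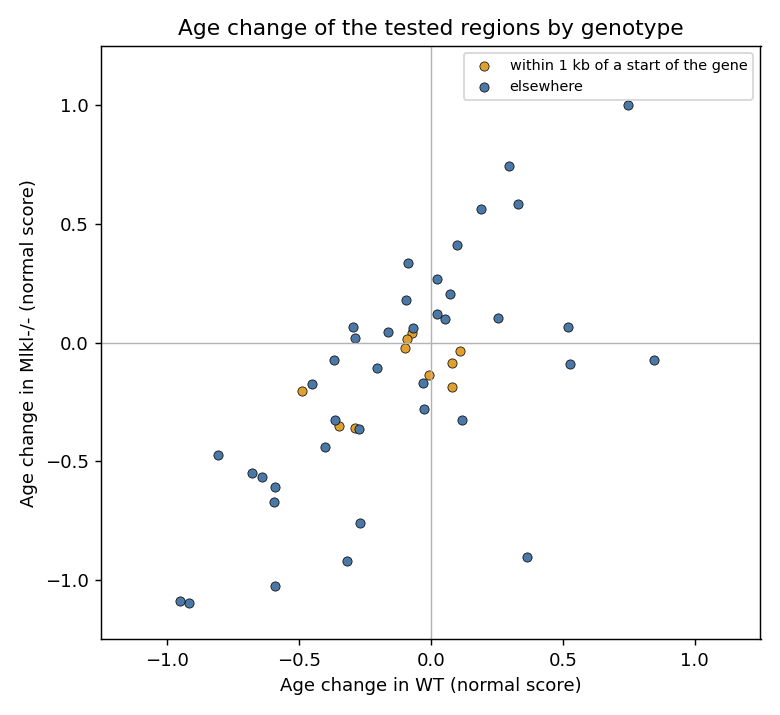
Age change (normal score) in WT on the horizontal axis and in Mlkl-/- on the vertical axis for the 49 tested regions, with start regions in orange. In the lower left quadrant, where both are negative, lie 23 regions, and 11 lie in the upper right.

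Loss of Mlkl went with no called difference at these genes. No member region passed at 3 months, at 18 months, over both ages or for the difference in age change between genotypes (0 of 49 each, and 0% of all regions in each; limma). The lowest adjusted p among the members was 0.867, 0.871, 0.765 and 0.965 in that order, and 2, 2, 3 and 1 of them had an unadjusted p under 0.05. Over both ages that is 3 member regions, where 6.22% of all regions were below this p. Genotype values did not overlap at 0 member regions (0.140% of all). The median difference, Mlkl-/- minus WT over both ages, was −0.01 (all regions 0.00).

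The 3 regions with an unadjusted p under 0.05 for genotype were assigned by position to the genes of the ligand and the coreceptor. The summit of the Tgfb1 region lies within Ccdc97. For the Tgfbr3 region at 52.6 kb the nearest start is that of Gm8145, at 4558 bp. Downstream of Tgfb1, 24.9 kb from its start and 7146 bp from that of Ccdc97, normal scores were 0.77, 0.68 and 0.59 for young WT, 0.39, 0.65 and 0.52 for aged WT, 0.42, −0.57 and −0.52 for young Mlkl-/- and 0.58, −0.56 and −0.56 for aged Mlkl-/- libraries. Full lists held a summit there in all 6 WT libraries and in 2 of 3 libraries of each Mlkl-/- group. In equal-length lists all 6 WT and 2 of 6 Mlkl-/- libraries held a summit there, the latter within the range of WT (difference −0.80 ± 0.26 SE, limma unadjusted p = 0.00618, adjusted p = 0.765). The start of Tgfbr3 (chr5:107288833-107289893, UTR of exon 1) had a mean of 1.13 ± 0.20 in WT and 0.79 ± 0.12 in Mlkl-/- libraries (SD, n = 6; difference −0.34 ± 0.14 SE, limma unadjusted p = 0.0224, adjusted p = 0.765). The intronic region of Tgfbr3 at 52.6 kb had −0.24 ± 0.47 and 0.38 ± 0.50 (SD, n = 6; limma unadjusted p = 0.0461, adjusted p = 0.765). At 18 months the intronic region of Tgfbr3 at 178.6 kb had summits in all 3 Mlkl-/- and no WT full lists (0.439% of all regions), with scores of 7.52, 8.81 and 5.78, and in 1 Mlkl-/- library in equal-length lists.

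In sequence, the starts of these genes were rich in GC. Over the 201 bases around the summit, the median GC content was 73.6% in the 10 tested start regions, against 64.2% in all tested regions within 1 kb of any start, with a median of 22.5 CpG dinucleotides against 16. Regions elsewhere in the gene bodies had a median of 50.2%, against 50.7% in all other tested regions, and 3 CpG each. The SMAD motif CAGACA, whose letters the sequences printed above show in capitals, was present in 17 of the 49 tested regions, against 16.2% of all tested regions. Away from starts, it was in 16 of 39 (all 19.6%), including 6 regions of Ski and 3 of Tgfb1. The E-box was in 20 of 49 (all 41.4%), ETS in 8 (16.1%), RUNX in 8 (10.5%), AP-1 in 6 (10.1%) and GATA in 3 (8.57%). No test was run on motifs.

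Beyond the 10 genes, 46 other pathway genes had 209 regions, of which 126 were tested. For age, 2 of the 126 passed, both lower, below the share of 2.72% over all regions. The intronic region of Pmepa1, which encodes a membrane protein that limits SMAD activation (chr2:173263509-173264070), went from 0.98 ± 0.44 to −0.55 ± 0.02 (SD, n = 6), with calls in 6 young and no aged equal-length lists of 6 each (change −1.53 ± 0.22 SE, limma adjusted p = 0.000442). It passed in WT alone (−1.81, limma adjusted p = 0.00873) and not in Mlkl-/- alone (−1.249, limma adjusted p = 0.05003). An intronic region of Furin, the protease that cleaves the TGF-beta precursor (chr7:80403962-80404619), went from 1.21 ± 0.17 to 0.35 ± 0.48 (SD, n = 6), a difference of −0.86 ± 0.18 (SE, limma adjusted p = 0.00675). It passed in neither genotype alone (WT −1.20, limma adjusted p = 0.0271; Mlkl-/- −0.52, limma adjusted p = 0.359). The nearest start is that of Gm44851. By role, 1 of 35 regions passed among ligands and activation, 0 of 25 among receptors and coreceptors, 0 of 14 among signal transducers, 1 of 32 among inhibitors and 0 of 22 among targets, where a region near genes of different roles counts under each. Of the 126 changes 63 were negative (50.0%). For genotype 0 passed.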

How the data were processed

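ATAC-seq of HSCs was analysed in 12 libraries, 3 in each of 4 groups assigned from the labels. The authors mapped reads to mm10 with Bowtie2 2.5.3 and called peaks per library with MACS2 2.2.7.1. The deposited files are summit lists, and the deposited score is a −log10 q-value; the lists hold no read counts, so depth is unknown, no counting interval can be given, and a count test could not be used. The lowest scores were near 2, below the cutoff that the methods state, and summits with a score of 3 or more on chromosomes 1 to 19, X and Y were used.

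Windows of 250 bp on each side were merged into 70993 regions. Genes and starts came from the GENCODE basic annotation of mm10. Each list was reduced to its best 35714 summits, ties being broken at random under a fixed seed, and regions were ranked within a list by their highest score and given normal scores. The 37881 regions called in 3 or more of these lists were fitted with limma 3.58.1 (lmFit, contrasts.fit and a trended eBayes; R 4.3.3) as 1 model of 4 group means and 7 contrasts. Calls were made where the Benjamini-Hochberg adjusted p over all regions was under 0.01. The p-values measure the spread between pools of mice. Where no library of a group had a summit in the equal-length list, the values of that group hold no such spread. Python 3.11.15, pysam 0.24.0 and pandas 2.3.3 were used for the rest.

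The genes, lists and tests were chosen with earlier results of these data known. For each gene the regions named were the start, the highest ranked region, those past the threshold, those called in all libraries of 1 arm and none of the other, and the 3 largest changes in each direction for age and for genotype over the 10 genes; some regions named outside this rule (Tgfb1 at 2.3 kb, Tgfbr1 at 46.8 kb, Tgfbr2 at 52.2 kb, Smad2 at 18.3 kb, Smad3 at 51.4 kb, Ski at 60.0 kb and Skil 4.9 kb upstream) were chosen after their values were seen. An erythroid marker and the sequence of 1 region are not reported here. The exact rank of a region in a list depends on the depth and background of that library.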

Additional observations from a re-analysis of the deposited data

Results flagged for a closer look

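Summits with a score under 3, which no comparison used, numbered 19 near the 10 genes over the 12 lists. What made them stand out is that the comparisons left them aside. Per list there were 0 to 3, and they were present in lists of all 4 groups.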

How the results depend on the processing

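The number of member regions that passed for age over both genotypes was 1. It was 3 with lists of unequal length (Tgfbr2 at 14.4 kb and Smad3 at 51.4 kb lower, Smad4 at 41.1 kb higher), 2 with all deposited scores (with Ski at 5.1 kb), 2 with regions called in 1 or more lists (with Smad3 at 51.4 kb) and 6 at an adjusted p under 0.05 (5 lower). It was 0 with percentile ranks, with list length as a covariate, with summits at Y genes as a covariate and in the 9 libraries with a shared mark in their file names. The Y-gene covariate was chosen after the lists had been seen, since any summit on chromosome Y, the covariate planned, was present in every list and could not be fitted. Such summits were in 3 lists, all young. Without 1 library the number was 0 to 2. The causes were not tested. Over all regions, 60 passed with list length as a covariate, 330 with Y genes and 211 in the 9 libraries, against 1029. The counts of 0 for age in WT, age in Mlkl-/-, all genotype contrasts and the interaction stayed at 0 under the 29 alternatives run for each, and none of the 15 named changes recomputed (9 for age and 6 for genotype) was reversed. Regions lower with age made up between 57.1% (list length as a covariate) and 76.6% (the 9 libraries) of those tested over the alternatives.

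Replicate numbers of the labels did not mark shared animals, and deviations of same-numbered libraries had correlations between −0.301 and 0.128, so that the numbers were not taken as pairs. With the number as a replicate block 1 member region passed for age, Tgfbr2 at 14.4 kb (limma adjusted p = 0.00724), and 772 regions over all. Depth is unknown and limits every call; with 3 libraries per group, a region that misses the threshold is not shown to be unaltered.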
